A study of Mus musculus with 6 samples.

Results

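The replication-dependent histone genes supply the bulk of the histones that package newly made DNA. They were followed here in c-Kit+ leukemic spleen cells of mice with and without floxed Chd7. Every probe set whose annotated gene symbols are all clustered-histone symbols of the H1, H2A, H2B, H3 or H4 families was taken, which gave 60 of the 41345 probe sets on the array. These 60 carry 61 genes, of which 48 lie on chromosome 13, 10 on chromosome 3, 2 on chromosome 6 and 1 on chromosome 15. The name rule also takes in 6 probe sets of genes that were treated here as not replication-dependent. They are the testis genes H1f6, H1f7, H2ac1 and H2bc1, the oocyte gene H1f8, and H1f10, whose transcripts are polyadenylated. All others, H2bc21 among them, were counted as replication-dependent. The 6 are kept in the counts and serve below as members of a different kind.

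In 1 genotype, called Chd7f/f here, both Chd7 alleles were floxed on the background Chd7f/f, Mx1-Cre, Cbfb+/56M. The other, called control, was Mx1-Cre, Cbfb+/56M. All mice of both genotypes thus carried Mx1-Cre, a recombinase that the interferon response to pIpC switches on in any interferon-responsive cell, and the 56M allele of Cbfb, which encodes the Cbfb-MYH11 fusion of inv(16) leukemia once recombined. All were given pIpC and the mutagen ENU, and c-Kit+ cells were sorted from spleen at the end stage of leukemia. The design text gives 3 independent samples per genotype but does not state that a sample is a single mouse. The p-values therefore reflect how these samples spread. Levels are log2 RMA values, differences are Chd7f/f minus control on that scale, and the 6 arrays limit the precision.

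Histones form the protein spool of the nucleosome: H3 and H4 build its centre, pairs of H2A and H2B flank it, and the linker histone H1 sits where the DNA enters and leaves. Replication-dependent histone genes are many near-identical copies in clusters, lack introns, and are transcribed in S phase from histone locus bodies. Their mRNAs end in a stem-loop instead of a poly(A) tail. The stem-loop binding protein and the U7 snRNP direct their cleavage, no polyadenylation follows, and the mRNAs are destroyed when DNA synthesis stops.

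The copies are so alike that the array often cannot tell them apart. Of the 60 probe sets, 30 carry 1 gene and 30 carry between 3 and 12. All 12 H3 probe sets carry 4 or 8 genes, so no single H3 gene can be followed. The H1 type has 8 probe sets, H2A 18, H2B 13 and H4 8, and 1 probe set mixes H1f4 with 3 H2B genes. There are 58 distinct probe sets, because 4 of them form 2 pairs with the same values on every array. Another 8 probe sets of histone genes were left out because they also carry a symbol outside the naming rule. The mean over the 6 arrays reached the limit for testing (4.10, the 30th percentile of named probe sets) in 47 of the 60, including 7 of H1, 16 of H2A, 10 of H2B, 7 of H3, 6 of H4 and the mixed one. Each probe set has its own hybridisation strength, so levels are compared between arrays and not between probe sets.

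The promoters of the genes described most below are shown first, because they hold the elements by which histone types are transcribed. Each line gives the 250 bases before the RefSeq transcription start on GRCm38.p6, 5′ to 3′ on the gene's strand. Capitals mark matches on either strand to TATAAA (the TATA box), CCAAT (the CCAAT box, ATTGG when reversed), ATTTGCAT (the octamer bound by Oct-1, ATGCAAAT when reversed) and AAACACA (the H1 box).

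H1f1 and H1f5 encode linker histones, and their levels differed most between arrays among H1 genes.
H1f1 (chr13:23763418-23763667, plus strand): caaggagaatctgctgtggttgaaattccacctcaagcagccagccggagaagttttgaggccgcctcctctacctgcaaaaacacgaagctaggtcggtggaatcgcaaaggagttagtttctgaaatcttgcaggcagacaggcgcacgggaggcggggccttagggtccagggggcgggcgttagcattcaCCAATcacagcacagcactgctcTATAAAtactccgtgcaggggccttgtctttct
H1f5 (chr13:21780626-21780875, minus strand): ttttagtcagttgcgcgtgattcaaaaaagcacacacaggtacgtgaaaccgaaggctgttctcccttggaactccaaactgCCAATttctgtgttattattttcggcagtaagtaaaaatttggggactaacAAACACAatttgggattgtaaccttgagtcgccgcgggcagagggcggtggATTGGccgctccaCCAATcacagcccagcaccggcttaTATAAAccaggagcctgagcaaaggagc

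H2ac20, H2bc12 and H2bc3 encode core histones of the H2A-H2B pair, and each of them has a probe set of its own.
H2ac20 (chr3:96220881-96221130, minus strand): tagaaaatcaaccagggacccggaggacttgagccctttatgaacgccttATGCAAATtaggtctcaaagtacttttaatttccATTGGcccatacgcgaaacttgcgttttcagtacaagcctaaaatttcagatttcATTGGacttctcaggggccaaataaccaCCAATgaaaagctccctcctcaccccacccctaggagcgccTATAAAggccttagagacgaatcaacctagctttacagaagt
H2bc12 (chr13:22035571-22035820, plus strand): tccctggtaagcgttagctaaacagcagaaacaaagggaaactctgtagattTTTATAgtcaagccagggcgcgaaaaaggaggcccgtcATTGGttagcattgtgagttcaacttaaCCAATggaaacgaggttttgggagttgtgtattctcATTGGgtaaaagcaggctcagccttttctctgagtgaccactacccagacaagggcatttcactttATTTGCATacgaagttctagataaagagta
H2bc3 (chr13:23746484-23746733, plus strand): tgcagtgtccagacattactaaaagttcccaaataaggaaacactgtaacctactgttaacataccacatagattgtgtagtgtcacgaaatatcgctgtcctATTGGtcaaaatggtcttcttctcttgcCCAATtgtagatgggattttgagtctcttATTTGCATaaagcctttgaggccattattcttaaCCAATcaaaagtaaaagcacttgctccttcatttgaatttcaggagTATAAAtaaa

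H4c9 and H4c1 encode the same H4 family and stood at opposite ends of the H4 differences between genotypes.
H4c9 (chr13:22041363-22041612, minus strand): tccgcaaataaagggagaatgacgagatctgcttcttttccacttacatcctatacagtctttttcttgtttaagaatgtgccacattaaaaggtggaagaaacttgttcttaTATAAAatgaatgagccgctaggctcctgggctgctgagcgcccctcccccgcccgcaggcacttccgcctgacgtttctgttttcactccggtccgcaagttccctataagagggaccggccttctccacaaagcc
H4c1 (chr13:23761250-23761499, minus strand): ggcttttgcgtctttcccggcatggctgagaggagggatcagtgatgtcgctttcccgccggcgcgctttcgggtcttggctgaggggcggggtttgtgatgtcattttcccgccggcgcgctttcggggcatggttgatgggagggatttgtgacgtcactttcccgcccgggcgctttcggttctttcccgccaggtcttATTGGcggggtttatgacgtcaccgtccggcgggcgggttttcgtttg

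RefSeq promoters were found for 56 of the 61 genes, 50 of them replication-dependent. The search covered 250 bases before to 50 after the start. A CCAAT box was in 44 of the 50 (88%), against 37.9% of all 27025 promoters of the same length. All 5 H1, 16 H2A, 12 H2B and 10 H3 promoters had one, and 1 of 7 H4 promoters did, that of H4c1. TATAAA was in 29 of 50 (58%), against 14.2% of all promoters. It was counted at any position, such as -137 in H4c9 and -198 in H2bc12, so not every match need be a TATA box. The octamer was in 10 of 50 (20%), against 1.75%: 5 of 16 H2A and 5 of 12 H2B promoters held it and no H1, H3 or H4 promoter did. The H1 box was in 4 of 5 replication-dependent H1 promoters, against 7.14% of all promoters, and in 1 of 16 H2A and 1 of 12 H2B promoters. The printed H1f5 promoter has the textbook order of an H1 gene, with the H1 box at -117, the last CCAAT box at -53 and the TATA box at -28 from the start. In 8 H2A-H2B pairs, among them H2ac12 with H2bc12, the genes run away from each other and their promoter windows overlap by 220 to 279 bases. A site in the overlap counts for both genes. The octamer of H2ac12 and H2bc12 is such a shared site, and so is that of H2ac8 and H2bc8. These matches describe letters and say nothing of which factor was bound.

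Before the members are described, the samples need a word. Chd7, a chromatin remodelling ATPase, was at 5.48, 6.50 and 5.91 on the Chd7f/f arrays and at 6.17, 7.54 and 5.32 on the control arrays, a difference of -0.38 (SE 0.58, limma adjusted p = 0.9998). The genotypes overlapped, and the annotation used does not say whether the probes lie in the floxed part, so this level does not check the labels. Kit, the sorted marker, was high everywhere, at 12.48, 11.69 and 11.91 in Chd7f/f and 11.72, 12.12 and 11.68 in control. Chd7f/f replicate 1 stood apart: it was the lowest of the 6 arrays for 48 of 49 genes of the DNA replication and S phase list and for 36 of 36 of the mitosis list, against 27.5% of all 17734 tested probe sets. Differences of the named histone probe sets, and their summaries, are therefore given with and without this array.

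The histone probe sets were low in that leukemia too. Chd7f/f replicate 1 was the lowest array for 42 of the 60, and for 37 of the 47 tested (78.7%, beside the 27.5% of all tested probe sets). The mean deviation of the 47 from their own 6-array means was -0.81, 0.15 and 0.35 on Chd7f/f arrays 1, 2 and 3 and 0.14, -0.03 and 0.20 on control arrays 1, 2 and 3. The same means over all tested probe sets lay between -0.06 and 0.03. The other 5 leukemias thus lay within 0.38 of each other in mean histone level, and Chd7f/f replicate 1 lay 0.78 below the lowest of them. A lower level in a bulk sample can mean fewer cells that make a transcript or less of it per cell, and these cannot be told apart here. The array that was highest for the most tested histone probe sets was also a Chd7f/f one, replicate 3, with 24 of 47 (51.1%, beside 12% of all tested probe sets).

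**Figure D1:**
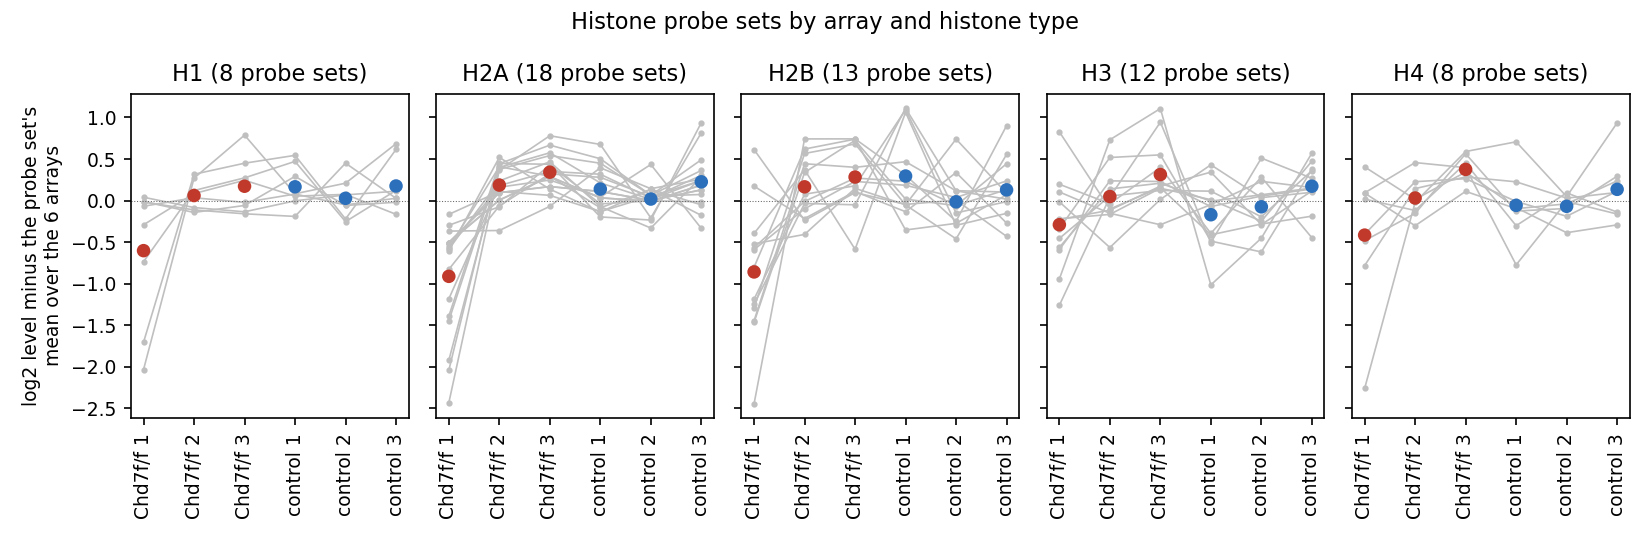
Each panel shows one histone type; grey lines join the values of one probe set across the 6 arrays as its deviation (log2) from its own mean over them, and large points are the mean of the type on each array (red Chd7f/f, left; blue control, right). The mean of every type is lowest on Chd7f/f replicate 1, and H3 and H4 deviate less there.

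The histone types differed in how far they followed this pattern. All 18 H2A probe sets had their lowest value in Chd7f/f replicate 1, as did 10 of 13 H2B probe sets and all 4 H1 probe sets of replication-dependent genes. In H3 it was 4 of 12 and in H4 4 of 8. The mean deviation on that array was -0.91 for H2A, -0.86 for H2B, -1.19 for the 4 replication-dependent H1 probe sets, -0.29 for H3 and -0.42 for H4. The 6 probe sets of genes treated as not replication-dependent had mean deviations of -0.04, -0.15 and -0.06 in Chd7f/f and 0.07, 0.15 and 0.02 in control. Their mean levels were all low, 2.89 to 5.15, so this contrast cannot be told apart from their low signal. By position, the 38 probe sets with replication-dependent genes of chromosome 13 alone had a mean deviation of -0.79 on Chd7f/f replicate 1. The 8 with those of chromosome 3 alone, none of them H1 or H3, had -0.79 as well. The 8 that carry genes of both chromosomes, all of them H3, had -0.38. Position and histone type thus cannot be told apart here.

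Level on the array went with the size of the deviation, as a description over few probe sets. On Chd7f/f replicate 1 the mean deviation was -0.14 for the 11 probe sets with a mean level under 4, where values may lie near background. It was -0.41 for the 22 between 4 and 6, -0.83 for the 8 between 6 and 8 and -1.51 for the 12 between 8 and 12. For the 7 at 12 or above it was smaller again, at -0.60. These 7 are close to the highest value in the table, 13.5, and all of them had their highest value in Chd7f/f replicate 3. Whether signal near the top of the scale narrows differences was not tested. Many H3 and H4 probe sets are in the low range, so the smaller H3 and H4 deviations cannot be told apart from their low signal.

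**Figure D2:**
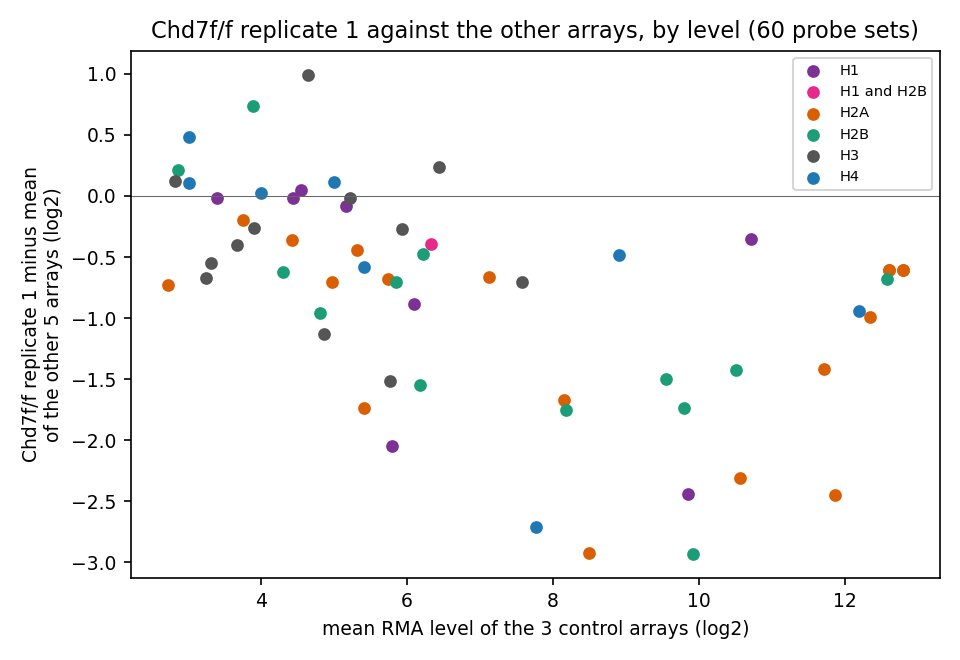
Points are histone probe sets, coloured by type; the x axis is the mean control level (log2) and the y axis is Chd7f/f replicate 1 minus the mean of the other 5 arrays (log2). Points between levels of 8 and 12 lie furthest below 0 on average, and those under 4 or above 12 lie closer to it.

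Linker histones came as 4 replication-dependent genes with a probe set of their own. H1f5 was at 7.50, 9.80 and 10.32 in Chd7f/f and at 9.61, 9.74 and 10.21 in control, a difference of -0.65 (SE 0.72). Chd7f/f replicate 1 lay 2.11 below the lowest of the others, which spanned 0.71, and without it the difference was 0.20. H1f1 was at 3.79, 5.81 and 5.94 in Chd7f/f and at 6.03, 5.27 and 6.10 in control. Its difference was -0.62 (SE 0.61) with all arrays and 0.07 without Chd7f/f replicate 1, which was again the one low sample. H1f3 was again lowest in Chd7f/f replicate 1, with a smaller gap, at 5.25, 6.10 and 6.26 in Chd7f/f and 6.45, 5.73 and 6.10 in control (difference -0.23, and 0.08 without that array). H1f2 hardly varied, at 10.44, 10.81 and 10.97 in Chd7f/f and 10.78, 10.80 and 10.56 in control (difference 0.02, and 0.18 without that array). Its range over the 6 arrays was 0.54, against 2.82 for H1f5.

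The other H1 genes of the rule are linker variants made outside S phase or in germ cells. H1f10 was at 5.08, 5.19 and 5.13 in Chd7f/f and 5.23, 5.10 and 5.18 in control, a range of 0.15 that was the narrowest of all 60, and differed by -0.04 (-0.012 without Chd7f/f replicate 1). H1f7 had a range of 0.43 and a difference of -0.14 (-0.17 without it). H1f8 had a range of 0.25 and a difference of -0.12 (-0.17 without it). H1f6 was below the limit for testing, between 3.12 and 3.76, and differed by -0.19 (-0.23 without it). None of these 4 had a gap between Chd7f/f replicate 1 and the others like that of H1f1 or H1f5.

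All 18 H2A probe sets shared 1 lowest array, Chd7f/f replicate 1. H2ac20, the H2A gene of the chromosome 3 cluster printed above, was at 8.31, 10.60 and 10.77 in Chd7f/f and at 10.68, 10.29 and 10.72 in control. The difference was -0.67 (SE 0.65), and 0.12 without Chd7f/f replicate 1, which lay 1.99 below every other sample. A probe set of 10 chromosome 13 genes led by H2ac11 (17291057) was at 5.63, 8.44 and 8.85 in Chd7f/f and at 8.74, 7.86 and 8.88 in control. Its difference of -0.86 (SE 0.85) was the largest of the H2A type and became 0.15 without that array. A second probe set of the same 10 genes, led by H2ac4 (17285867), gave 9.51, 11.996 and 12.22 in Chd7f/f and 12.06, 11.62 and 11.92 in control (difference -0.62, and 0.25 without that array). In both, the 5 other samples overlapped freely across the genotypes. These 10 genes have 7 probe sets, and the rest fell less in Chd7f/f replicate 1 and disagreed in sign. Their differences were 0.037, 0.088, 0.079, -0.094 and -0.38 (17285677, 17285838, 17291186, 17291204 and 17291012). Without Chd7f/f replicate 1 they were 0.20, 0.39, 0.39, 0.16 and -0.061. That array lay between 0.22 (17291204) and 0.76 (17291012) below the lowest other one in them.

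The brightest H2A probe sets showed the same order on a narrower scale. The pair with the same values that carries 12 H2A genes (17285703 and 17291023) was at 12.02, 12.62 and 12.69 in Chd7f/f and at 12.63, 12.52 and 12.65 in control. The pair for H2ac18, H2ac19 and H2ac20 (17400545 and 17408017) was at 12.22, 12.73 and 13.02 in Chd7f/f and at 12.76, 12.72 and 12.91 in control. The differences were -0.16 and -0.14, and 0.05 and 0.08 without Chd7f/f replicate 1. H2ac20 is in the second pair as well as in its own probe set, and the gap below the other arrays was 1.99 in its own and 0.50 in the shared one.

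H2ac1, the testis H2A gene, was the one member with an unadjusted limma p under 0.05 for a lower level in Chd7f/f. It was at 4.69, 4.69 and 4.98 in Chd7f/f and at 5.45, 5.20 and 5.31 in control, with no overlap. The difference was -0.53 (limma adjusted p = 0.9998), less than a fold of 1.5, and -0.48 without Chd7f/f replicate 1. It is named here after its values were seen, and it did not share the isolated low value of Chd7f/f replicate 1.

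H2B genes pair with H2A, and H2bc12 had the widest range of all 60 probe sets, 3.34. It was at 7.16, 10.35 and 10.35 in Chd7f/f and at 9.91, 9.36 and 10.51 in control. The difference was -0.64 (SE 0.90) with all arrays and 0.42 without Chd7f/f replicate 1, so its sign rested on that sample. H2bc3 was at 8.15, 10.04 and 9.997 in Chd7f/f and at 10.06, 9.71 and 9.61 in control (difference -0.40, and 0.22 without that array). The brightest H2B probe set, for H2bc13, H2bc15, H2bc11 and H2bc7 (17290997), was at 11.91, 12.46 and 12.74 in Chd7f/f and at 12.70, 12.41 and 12.60 in control. Its difference was -0.20, and 0.03 without that array. Other probe sets of the same genes disagreed in sign. One (17285746) differed by 0.37, and by 0.87 without that array, and another (17291190) by -0.31, and by -0.087 without it.

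A pair of probe sets for H2bc4, H2bc6 and H2bc8 behaved otherwise. The first (17285851) was at 7.86, 9.07 and 9.06 in Chd7f/f and at 10.22, 9.23 and 9.21 in control, so every Chd7f/f value lay below every control value. The difference was -0.89 (SE 0.43, limma adjusted p = 0.9998), and -0.49 without Chd7f/f replicate 1 and -0.55 without control replicate 1. The second (17285834) was at 9.01, 10.28 and 10.38 in Chd7f/f and at 11.29, 10.05 and 10.19 in control, with overlap, and differed by -0.62, and by -0.18 without that array. Both carried an isolated high value in control replicate 1 beside the low one in Chd7f/f replicate 1. The mixed probe set of these genes with H1f4 (17291195) did not show that high value. It was at 5.93, 6.24 and 6.37 in Chd7f/f and at 6.32, 6.41 and 6.27 in control. Its difference was -0.15, and -0.026 without Chd7f/f replicate 1. H2bc21, chosen after its values were seen, was highest in control replicate 1, as the pair was. It was at 5.62, 6.39 and 5.43 in Chd7f/f and 7.08, 5.72 and 5.86 in control (difference -0.41, and -0.31 without Chd7f/f replicate 1). The mean level of the 7 measured erythroid markers, of 16 listed, was highest on the same array, at 9.21, 10.03 and 10.52 in Chd7f/f and 10.99, 9.62 and 10.12 in control. Their part in these H2B values was not tested.

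H3 is read only through probe sets shared by several genes, and these did not move as one. An 8-gene probe set (17408015) was at 4.22, 5.89 and 6.27 in Chd7f/f and at 4.15, 4.71 and 5.73 in control, so replicate 1 was low in both genotypes. Its difference of 0.60 (SE 0.63) became 1.22 without Chd7f/f replicate 1. A 4-gene probe set for H3c1, H3c8, H3c10 and H3c11 (17291233) ran against the rest, at 5.76, 4.83 and 5.09 in Chd7f/f and 4.52, 4.65 and 4.75 in control. Here Chd7f/f replicate 1 was the highest sample, the genotypes did not overlap, and the difference was 0.59 (SE 0.25, limma adjusted p = 0.9998), and 0.32 without that array. The same 4 genes have 3 more probe sets: 17285680 differed by -0.11 (and -0.027 without that array), and 17285821 and 17291008, both below the limit for testing, by -0.19 and -0.14 (and -0.0045 and 0.10). The 4 disagree in sign although they carry the same genes, so no value can be given to an H3 gene.

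The remaining H3 probe sets named all carry the 8 genes H3c2, H3c3, H3c4, H3c6, H3c7, H3c13, H3c14 and H3c15. The brightest (17400555) was at 6.94, 7.77 and 7.76 in Chd7f/f and at 7.46, 7.59 and 7.67 in control, with Chd7f/f replicate 1 lowest and a difference of -0.08 (0.19 without it). Another (17285842) was at 4.42, 5.72 and 6.62 in Chd7f/f and at 5.17, 6.19 and 5.95 in control, a difference of -0.18 (0.40 without that array). Yet another (17291183) was at 6.82, 6.58 and 7.02 in Chd7f/f and at 6.23, 6.91 and 6.18 in control, a difference of 0.37 with and without that array. The 8-gene probe sets thus disagreed in sign, and in which sample was lowest.

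H4 held the largest differences in both directions. H4c9 was at 4.94, 7.18 and 7.79 in Chd7f/f and at 7.91, 7.25 and 8.14 in control. The difference of -1.13 (SE 0.73, limma adjusted p = 0.9998) was the most negative of the 60, and it shrank to -0.28 without Chd7f/f replicate 1, which lay 2.24 below the lowest other sample. H4c1 was at 5.41, 5.78 and 5.72 in Chd7f/f and at 4.55, 5.31 and 5.16 in control. All 3 Chd7f/f samples were above all 3 controls, and the difference was 0.63 (SE 0.23, limma adjusted p = 0.9998) and 0.74 without Chd7f/f replicate 1. The unadjusted call was lost when Chd7f/f replicate 2, its replicate 3 or control replicate 1 was left out. These are the 2 H4 promoters printed above. Among H4 promoters searched, the one of H4c1 alone held a CCAAT box.

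H4c12 was the brightest H4 probe set, at 11.29, 12.21 and 12.36 in Chd7f/f and at 12.30, 12.10 and 12.17 in control. Its difference was -0.24, and 0.10 without Chd7f/f replicate 1, the one sample outside a narrow band. A probe set of 6 H4 genes, H4c9 and H4c1 among them (17285706), was at 8.53, 9.16 and 9.19 in Chd7f/f and at 8.92, 8.74 and 9.04 in control. Its difference was 0.06, and 0.27 without Chd7f/f replicate 1. H4c17 was at 4.91, 5.24 and 5.96 in Chd7f/f and at 5.27, 5.30 and 5.69 in control, a difference of -0.05 (0.18 without it). In both of these the genotypes overlapped, with Chd7f/f replicate 1 lowest.

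**Figure D3:**
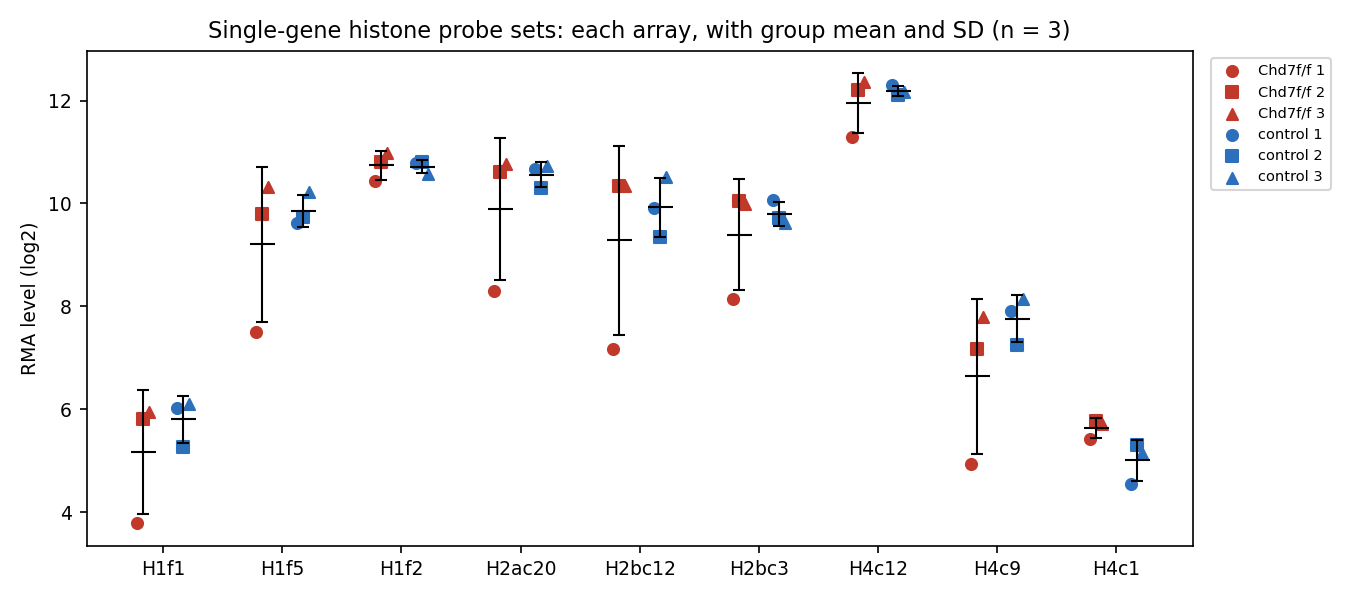
Each position on the x axis is a histone probe set with 1 gene. Points are the log2 RMA levels of the 3 Chd7f/f arrays (left) and the 3 control arrays (right), with the group mean and SD. One Chd7f/f array lies far below the other 5 in H1f1, H1f5, H2ac20, H2bc12, H2bc3, H4c12 and H4c9, while H1f2 varies little and H4c1 is higher in all 3 Chd7f/f arrays.

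The comparison of genotypes across the members gave no difference that passed a corrected test. At a limma adjusted p under 0.05, 0 of the 47 tested histone probe sets and 0 of all 17734 (0%) were called. At an unadjusted limma p under 0.05, 2 members were called, H2ac1 and H4c1, beside 325 (1.83%) of all tested probe sets. With a fold of at least 1.5 added, 0 histone probe sets were lower in Chd7f/f, beside 0.395% of all, and H4c1 alone was higher, beside 0.31% of all. All Chd7f/f arrays were below all control arrays for 3 members (4.31% of all tested), and above them for 2 (2.45% of all tested). The 3 were H2ac1, the H2bc4 probe set (17285851) and an 8-gene H3 probe set (17400559), and the 2 were H4c1 and the 4-gene H3 probe set (17291233).

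Most of the small differences had a negative sign, and this turned without 1 leukemia. Of the 47 tested members, 36 (76.6%) were lower in Chd7f/f, beside 56.2% of all tested probe sets. Without Chd7f/f replicate 1 only 13 of 47 (27.7%) were lower, beside 50.2% of all. The median difference was -0.16 over the members, against -0.03 over all tested probe sets, and became 0.15 without that array. Leaving out Chd7f/f replicate 2 instead gave -0.25, leaving out replicate 3 gave -0.34, and leaving out control replicate 2 gave -0.27. By type, the median was -0.14 for H1, -0.24 for H2A, -0.35 for H2B, -0.08 for H3 and 0.00 for H4. Without Chd7f/f replicate 1 these were 0.07, 0.14, 0.12, 0.32 and 0.23. The median range over the 6 arrays was 1.07 in the tested members and 0.56 in all tested probe sets, and 0.63 and 0.46 without that array.

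**Figure D4:**
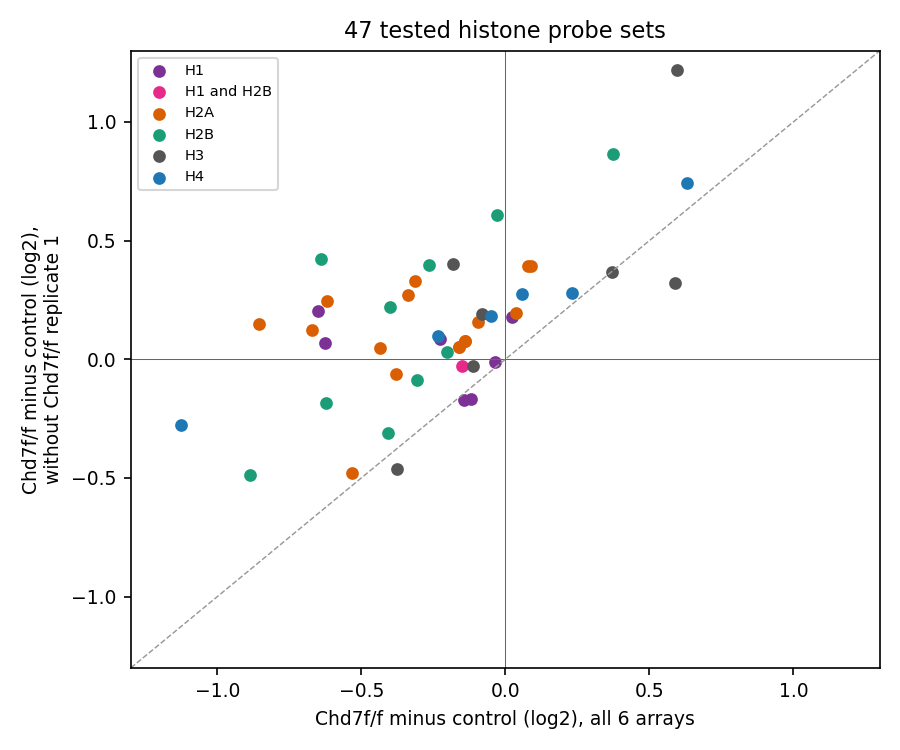
Each point is a tested histone probe set, coloured by type; the x axis is the Chd7f/f minus control difference (log2) over all 6 arrays and the y axis the same without Chd7f/f replicate 1. Most points left of 0 on the x axis lie above 0 on the y axis, and the H4c9 point stays below 0 on both.

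The distance of Chd7f/f replicate 1 from the lowest other array shows how far it stood out, with thresholds chosen after the values were seen. It was over 0.5 for 22 of the 47 tested histone probe sets (46.8%), beside 999 of all 17734 (5.63%). It was over 1 for 14 members (29.8%), beside 285 of all (1.61%). It was over 2 for 15 probe sets in all, and 5 of them are histone members: H4c9, H2bc12, H1f5 and the H2A probe sets led by H2ac11 and H2ac4. The other 10 are led by C2cd4a (3.37) and Clec11a, a secreted growth factor (2.78). Next come the mitotic checkpoint kinase Bub1 (2.39), Rrm2, the small subunit of ribonucleotide reductase (2.36), and the probe set shared by the DNA repair gene Tdg and its pseudogene Tdg-ps2 (2.26). The rest are the replication factor Gins1 (2.13), Uhrf1, which maintains DNA methylation at the fork (2.13), Tmem223 (2.09), the recombination gene Rad54l (2.07) and Taf1d (2.05).

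Genes that make, process and chaperone histones were described from lists of known roles, and 0 genes in them were called, at a limma adjusted p under 0.05 or at an unadjusted one with a fold of at least 1.5. The 27 measured genes for 3′ end processing and histone transcription had a median difference of -0.15, with 21 lower and 6 higher, and -0.00 without Chd7f/f replicate 1. They share E2f1, E2f2 and Ccne1 with the S phase list and Ccna2 with the mitosis list. Slbp, which binds the stem-loop, was at 8.98, 9.91 and 9.96 in Chd7f/f and at 10.17, 9.63 and 10.02 in control, so its low sample was the same one. Npat, which recruits the transcription machinery to histone loci downstream of cyclin E, differed by -0.04. Casp8ap2, the FLASH protein of the histone locus body, differed by -0.03. The U7 snRNP proteins Lsm10 and Lsm11 differed by 0.12 and 0.22. For Npat, Casp8ap2 and Lsm10 Chd7f/f replicate 1 was not the lowest array. Ccne1, cyclin E1, was at 5.34, 6.80 and 7.05 in Chd7f/f and at 7.17, 7.05 and 6.95 in control, with the same low sample.

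The list of chaperones and of genes for acetylating new histones also holds factors of deposition outside replication, such as Hira, Daxx and Atrx, and Hmmr, which is no chaperone and is in the mitosis list too. The list also shares Mcm2 with the S phase list. Its 25 measured genes had a median difference of -0.16, with 21 lower and 4 higher, and 0.05 without Chd7f/f replicate 1, which was lowest for 17 of them. Asf1b, an H3-H4 chaperone of dividing cells, was at 7.55, 9.98 and 9.99 in Chd7f/f and at 9.79, 9.42 and 10.18 in control, whereas its paralog Asf1a had a range of 0.51. Chaf1a, the large subunit of chromatin assembly factor 1, was at 5.79, 7.75 and 7.68 in Chd7f/f and at 8.14, 7.08 and 7.72 in control. Its partner subunit Chaf1b spanned 0.44 and did not have its lowest value in that sample. Nasp, which holds soluble histones, was at 6.94, 8.82 and 8.53 in Chd7f/f and at 8.81, 8.32 and 8.34 in control. Hat1, which acetylates new H4, differed by -0.03.

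Genes listed as replication-independent variants gave a comparison within the histone family. Whether each of them, H2ax among them, lacks S phase transcripts was not tested. The 10 tested genes of the list, which shares H1f7, H1f8 and H1f10 with the members, had a median difference of -0.16, and -0.08 without Chd7f/f replicate 1. H2ax, the variant phosphorylated at DNA breaks, was at 9.84, 11.59 and 11.68 in Chd7f/f and at 11.47, 11.39 and 11.86 in control. H2az1, found at promoters, was at 7.73, 7.85 and 7.10 in Chd7f/f and at 7.98, 7.62 and 7.60 in control, with Chd7f/f replicate 3 lowest. Cenpa, the centromeric H3, differed by -0.07 and spanned 0.69.

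Genes of DNA replication had the same lowest array as the histone genes. The mean deviation of the 49 genes of the S phase list was -1.22, 0.35 and 0.22 in Chd7f/f and 0.52, -0.13 and 0.26 in control, and their median difference was -0.43, and 0.06 without Chd7f/f replicate 1. Rrm2 was at 7.001, 9.56 and 9.54 in Chd7f/f and at 9.36, 9.42 and 9.63 in control. The replicative helicase subunits Mcm2 and Mcm5 were at 8.85 and 8.60 in that leukemia, and at 10.19 or more in every other. Pcna, the sliding clamp, spanned a narrower 0.84. The 36 mitosis genes deviated by -1.56, 0.56 and 0.38 in Chd7f/f and by 0.33, -0.13 and 0.43 in control, and Mki67, a marker of cycling cells, was at 10.22, 11.82 and 11.77 in Chd7f/f and at 11.86, 11.30 and 11.83 in control. Control replicate 1 had the highest S phase mean of the 6, whereas the histone mean was highest on Chd7f/f replicate 3. The part of the share of cycling cells in the histone values was not tested.

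**Figure D5:**
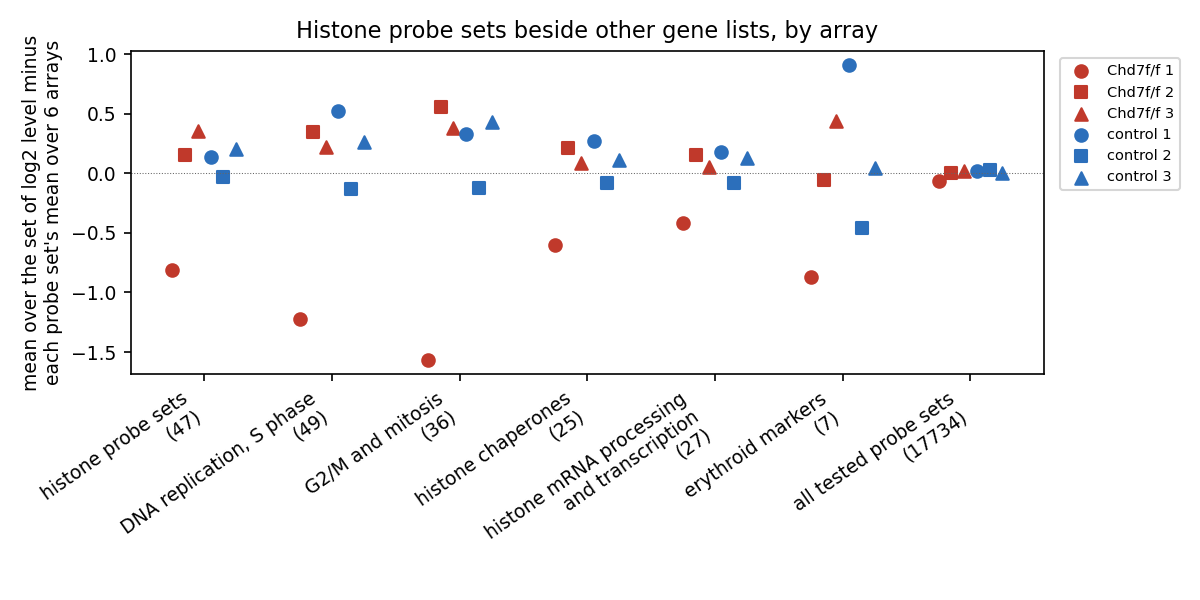
Points are the mean deviation (log2) of each gene list from its genes' own 6-array means, on the 3 Chd7f/f arrays (left) and the 3 control arrays (right). Some genes are in several lists. Histones, chaperones, S phase and mitosis genes are all lowest on Chd7f/f replicate 1, mitosis at -1.56 and tested histones at -0.81.

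Markers of the sorted cells and of other cell types varied between leukemias as well. The 10 c-Kit+ myeloid markers deviated by 0.64, -0.31 and 0.09 in Chd7f/f and by -0.03, -0.03 and -0.36 in control. Their mean was thus highest in the leukemia with the lowest histone level, which was the highest array for 5 of the 10. The 7 measured erythroid markers deviated by -0.87, -0.05 and 0.44 in Chd7f/f and by 0.90, -0.46 and 0.04 in control, and Chd7f/f replicate 1 was lowest for 5 of them, as for most histone probe sets. The 11 monocyte markers deviated by 0.32, -0.39 and 0.77 in Chd7f/f and by -0.21, 0.18 and -0.66 in control, and the 8 tested neutrophil markers by -0.15, -0.22 and 0.81 in Chd7f/f and by -0.43, 0.14 and -0.14 in control. Monocyte and neutrophil markers were highest in Chd7f/f replicate 3, the array where histones were highest. Mast cell markers, 6 tested, deviated by 0.43, -0.23 and 0.15 in Chd7f/f and by -0.66, 0.06 and 0.26 in control. The part of any of these in the histone values was not tested.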

How the data were processed

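Total RNA of 6 sorted spleen samples was labelled with the Ambion WT Expression Kit and hybridised 1 per array, per the labels' protocols. A mouse Gene 2.0 ST array is named in the design text, and a human one of the same generation in the labels' protocol. The deposited values are log2 levels per probe set between 1.78 and 13.5, made with RMA in Affymetrix Expression Console, per the submitters' processing notes, without versions. RMA equalises arrays, which hides differences in total signal. Detection calls are not analysed here. The precision is limited by having 3 arrays a group.

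Names came from the platform annotation with symbols updated to RefSeq (GRCm38.p6), and probe sets were kept separate because many carry several histone genes. Named probe sets whose 6-array mean reached the 30th percentile, 17734 in all, were tested with limma (version 3.58.1, R 4.3.3; lmFit, eBayes, no covariate). Benjamini-Hochberg adjustment ran over all of them. The steps were tested on simulated data. Described members are, for each type, the 4 with the highest mean, the 2 with the largest tested difference and the 2 with the widest range, plus the linker variants. Regulators were picked whatever their values; a few genes, said so in the text, were chosen after their values were seen. Members, lists and the array left out were chosen with earlier results of these data known. Promoters are from RefSeq. Alternatives were other normalizations, filters, priors, array weights, a replicate block and leaving out each array. Replicate numbers come from the titles.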

Additional observations from a re-analysis of the deposited data

How the results depend on the processing

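At a limma adjusted p under 0.05, 0 histone probe sets and 0 of all tested probe sets were called under every alternative, with the threshold also at 0.1. Counts below are at an unadjusted limma p under 0.05 and a 1.5-fold change or more. Histone probe sets higher in Chd7f/f numbered 1, against 2 with a second quantile normalization, median centring, no filter or a trended prior, and 0 to 3 with 1 array left out. Those lower numbered 0, and 0 to 1 with 1 array left out. Over all tested probe sets 70 were lower, against 157 with every probe set of the table and 84 to 154 with 1 array left out. Those higher were 55, against 250 with every probe set of the table, 109 with array weights and 40 to 228 with 1 array left out. Replicate numbers did not pair the samples (correlations 0.013, -0.043 and 0.039), and with the replicate block 85 were higher and the histone median stayed at -0.16. Array weights gave Chd7f/f replicate 1 the least weight, 0.42, and a histone median of 0.01. Under them the difference turned positive, to 0.0082 for 17285680, 0.16 for H4c17, 0.039 for H1f3, 0.29 for 17285842, 0.085 for H2bc3, 0.0068 for 17285867, 0.011 for 17290997, 0.031 for H4c12, 0.025 for 17400545 and 0.063 for 17400555. Leaving out each array in turn, the sign turned for 20 named probe sets, 17 of them without Chd7f/f replicate 1. Their differences ran over -0.29 to 0.030 for 17285680, -0.34 to 0.18 for H4c17, -0.28 to 0.052 for 17285703, -0.061 to 0.27 for 17285706, -1.17 to 0.42 for H2bc12, -0.42 to 0.084 for H1f3, -0.70 to 0.40 for 17285842, -0.091 to 0.18 for H1f2, -0.72 to 0.22 for H2bc3, -1.11 to 0.25 for 17285867, -1.01 to 0.071 for H1f1, -0.39 to 0.029 for 17290997, -0.44 to 0.097 for H4c12, -1.21 to 0.20 for H1f5, -1.46 to 0.15 for 17291057, -0.32 to 0.077 for 17400545, -0.22 to 0.19 for 17400555 and -1.11 to 0.12 for H2ac20. The probe sets 17291023 and 17408017 repeat 17285703 and 17400545. The cause of these changes was not tested. With 3 arrays a group, shared probe sets and no detection calls, small differences and low levels are not resolved.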

Other observations

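The 8 histone probe sets that also carry a symbol outside the naming rule belong in no count above. In Chd7f/f their mean deviation was -0.42, 0.09 and 0.24, and in control it was 0.06, -0.00 and 0.03. The brightest carries 12 symbols, mostly H2B genes (17285691), and was at 11.69, 12.58 and 12.66 in Chd7f/f and at 12.58, 12.43 and 12.59 in control. Chd7f/f replicate 1 was its lowest sample, as it was for 10 of 13 H2B members.

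Other genes with a probe set of their own, chosen after their values were seen, are given as values. H2ac21 (17400539), on chromosome 3, was at 6.60, 8.44 and 8.43 in Chd7f/f and at 7.79, 7.75 and 8.93 in control. H2bc18 was at 6.59, 8.39 and 8.78 in Chd7f/f and at 8.07, 7.99 and 8.49 in control. H2ac15 was at 3.81, 5.66 and 5.83 in Chd7f/f and at 5.47, 5.27 and 5.50 in control, and H2ac10 at 10.31, 11.68 and 11.85 in Chd7f/f and 11.81, 11.52 and 11.80 in control. In these 4 probe sets Chd7f/f replicate 1 was lowest, by over 1 below the next array. H2ac21 has another probe set of its own (17408008), below the limit for testing. There Chd7f/f replicate 1 was lowest by only 0.033, and the range over the 6 arrays was 0.27. H4c14, the H4 gene of chromosome 3, was not lowest in Chd7f/f replicate 1, at 4.13, 3.995 and 4.56 in Chd7f/f and 3.81, 4.21 and 3.98 in control. H4c8, untested for its low level, was higher in every Chd7f/f array, at 3.67, 3.28 and 3.61 in Chd7f/f and 3.18, 2.88 and 2.98 in control.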
